A study of Mus musculus with 12 samples.

Results

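Glycogen is the glucose store of animal cells, and 9 genes of its synthesis and breakdown were followed in the hypothalamic arcuate nucleus (ARC) of R299Q γ2 AMPK knockin mice. They are the phosphorylase kinase subunit genes *Phka1*, *Phka2*, *Phkb*, *Phkg1* and *Phkg2*, the glycogen phosphorylase genes *Pygb* and *Pygm*, the glycogen synthase gene *Gys1* and the branching enzyme gene *Gbe1*. The 9 were taken by symbol from the 38283 genes of the deposited table, and all 9 passed the low-value filter that left 14017 genes. They were chosen for their function and because *Phka2* was lower in the homozygous libraries, so genotype values of these 9 genes are given as a description with no p-value, and nothing is read from calls among them.

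ARC tissue of 5 wild-type (WT) mice and 7 mice homozygous for the knockin allele (Homo) was cut from brain sections by laser-capture microdissection, and each mouse gave 1 RNA library. All were males on a C57BL/6 background, aged 8 weeks and fed ad libitum. WT and Homo animals came from crosses of heterozygous mice, and the mutation was carried in the germline in *Prkag2*, which encodes the γ2 subunit of AMPK, so every cell that expresses the gene was mutant and not the ARC alone. The RNA was amplified before sequencing. Values are FPKM, the fragments on a gene divided by its length and by the fragments mapped in the library, and their sums lay between 1.33e+07 and 2.12e+07 per library, of which the 10 highest genes held 95.9% to 98.1%. No fragment counts were used here, so the depth behind single values is unknown. The libraries fell into 7 with fewer genes above 0 (15742 to 16467; WT 1, WT 2 and Homo 1 to 5) and 5 with more (18141 to 18635; WT 3 to 5, Homo 6 and Homo 7). No label names this split as a batch, although Homo 6 and Homo 7 carry titles with another wording than Homo 1 to 5. *Prkag2* itself had 14.6 ± 5.43 FPKM in the 5 WT libraries and 14.8 ± 4.88 in the 7 Homo libraries (mean ± SD, as for all values below). A missense allele leaves the transcript in place, so this level does not check the labels.

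Tissue markers showed arcuate neurons in every library. The summed FPKM of 9 arcuate neuron genes (*Npy* highest, *Nhlh2* lowest) ran from 1313 to 4615 in WT, with WT 3 lowest, and from 3399 to 5197 in Homo. Of the lists of other cell types, the 10 microglial genes summed to between 69.0 and 124 FPKM in WT and between 112 and 183 in Homo. The 7 tanycyte genes had the opposite order, at 30.7 to 146 in WT and 25.5 to 73.2 in Homo. Pituitary hormone genes were high in 3 libraries, WT 3 (summed FPKM 117), WT 5 (68.4) and Homo 7 (56.4), and at or below 11.8 in the other 9. Of the 6 liver markers, *Alb*, *Fga*, *Fgb* and *Ahsg* were listed at 0 in all 12 libraries. The other liver markers, *Apoa2* (mean 12.6 FPKM) and *Apoa1* (1.07), passed the filter. The liver list summed to 6.18 to 14.9 FPKM in WT and 7.61 to 23.9 in Homo. Among 10 skeletal muscle markers *Myh1* was at 0 throughout and 8 did not reach the filter, while the summed list was above 10 FPKM in Homo 4 (27.4) and Homo 5 (41.0) alone.

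As background, glycogen phosphorylase releases glucose units from glycogen, and phosphorylase kinase switches it on by phosphorylating a serine near its N terminus. The kinase is built from regulatory α and β subunits, a catalytic γ subunit and calmodulin as the δ subunit, through which calcium acts, while protein kinase A phosphorylates α and β. *Phka1* and *Phkg1* encode the forms first described in muscle, and *Phka2* and *Phkg2* the forms first described in liver. Glycogen synthase is inhibited by phosphorylation of several serines, one of which AMPK can phosphorylate. In brain, most glycogen is held by astrocytes, and the known phosphorylases there are the brain and muscle forms.

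The kinase sites that connect these enzymes are shown because they are what the γ subunits act on. The 30 bases around the codon of serine 15, the target of phosphorylase kinase, are given for each phosphorylase, and those around serine 8 for *Gys1*, a site known for AMPK and phosphorylase kinase. Residues are counted from the initiator methionine, sequences read 5′ to 3′ on the coding strand from GENCODE transcripts (release 21, GRCm38), and the capitals mark the serine codon. All 4 stretches are coding sequence in exon 1. They lie at chr2:150786895-150786924 (+) for *Pygb*, chr19:6384506-6384535 (+) for *Pygm*, chr12:70227527-70227556 (−) for *Pygl* and chr7:45435059-45435088 (+) for *Gys1*.
Pygb: aggcagaagcagatcAGCgtgcgtggcatc
Pygm: aagagaaagcaaatcAGCgttcgtggctta
Pygl: aagcgacggcagatcAGCatccgaggcatc
Gys1: ctcagccgcagtctcTCTgtgtcctcgctt
The brain form shared 22 of 30 bases with the muscle form and 22 of 30 with *Pygl*, the liver form, and the muscle and liver forms shared 21. The phosphorylases use the codon AGC for this serine, and *Gys1* uses TCT.

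*Phka2* stood apart among the 9 genes. It encodes the liver-type α subunit and lies on chromosome X (160502166 to 160598878, GRCm38, plus strand). From WT 1 to WT 5 its values were 26.9, 34.4, 18.9, 14.0 and 22.9 FPKM. In the 7 Homo libraries the lowest value was 2.62, the median 7.64 and the highest 9.17 FPKM. Every Homo library was below every WT library, and the lowest of all was Homo 1. The WT mean was 23.4 ± 7.78 FPKM (SD, n = 5) and the Homo mean 6.70 ± 2.26 (SD, n = 7), a WT level 3.49 times that of Homo. These are the values for which *Phka2* was included. In bulk tissue, fewer cells of a type and less RNA per cell cannot be told apart.

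On the log2(FPKM + 1) scale used for the fits, which understates changes of low genes, the *Phka2* difference between Homo and WT was -1.67 with a standard error of 0.28. Among the 14017 genes, 161 had a lower log2 difference than *Phka2*. By the same measure *Phkg1* lay near the other end, with 13850 genes below it. Groups without overlap that were lower in Homo occurred in 13 genes, 0.0927% of those tested. Within the library sets the *Phka2* difference was -2.19 in the 7 libraries and -1.15 in the 5. That genotypes did not overlap in either follows from the lack of overlap over all 12 libraries. It was -1.72 with the library set as a covariate, and leaving out 1 library at a time gave -1.83 (without WT 4) to -1.50 (without Homo 1). The astrocyte list of 10 genes summed to 519 to 949 FPKM in WT and 687 to 839 in Homo, and the neuron list of 9 genes to 770 to 1118 and 786 to 1208. Between the genotype means of log2 values, microglial markers differed by 0.56, pituitary markers by -0.52, tanycyte markers by -0.50 and oligodendrocyte markers by 0.34. Arcuate neuron markers differed by 0.27 and skeletal muscle markers by 0.17. The part of these cell types in the *Phka2* values was not tested. An annotated antisense gene, *Gm15243*, overlaps *Phka2*, but its highest value was 1.49 FPKM, in Homo 7.

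**Figure D1:**
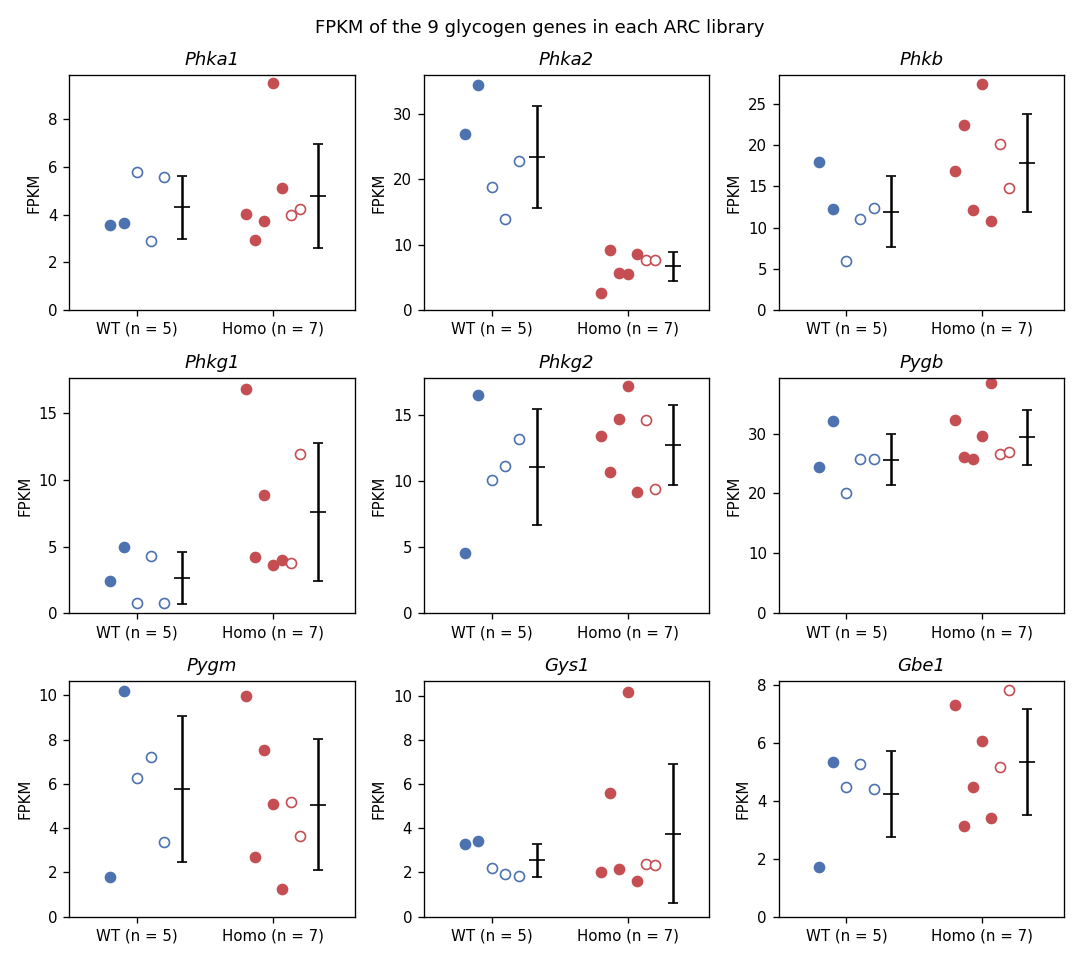
FPKM of each of the 9 genes by library, in WT (blue, n = 5) and Homo (red, n = 7). Filled points are the 7 libraries with fewer genes above 0, open points the 5 with more, and the bar is the mean with its SD. *Phka2* alone has no overlap between genotypes, with the Homo libraries at 2.62 to 9.17 FPKM and the WT libraries at 14.0 to 34.4.

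The companion α subunit gene *Phka1*, the muscle type, also lies on chromosome X (102513975 to 102644246, minus strand). WT 1 to WT 5 held 3.58, 3.65, 5.80, 2.89 and 5.57 FPKM. Homo libraries ran from 2.94 through a median of 4.03 to 9.50 FPKM, the last in Homo 4. The groups overlapped, with Homo 4 above the WT range and WT 4 just below the Homo range, and had means of 4.30 ± 1.30 (SD, n = 5) and 4.79 ± 2.17 (SD, n = 7). The log2 difference of *Phka1* was 0.09 (standard error 0.26), and its sign turned without Homo 4 (-0.06), without WT 4 (-0.01), when values were rescaled without the 10 highest genes (-0.02) and between the library sets (0.30 and -0.13).

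*Phkb*, on chromosome 8 (85840959 to 86061376), encodes the β subunit, the other regulatory chain. Its values were 18.0, 12.2, 5.95, 11.0 and 12.4 FPKM in WT 1 to WT 5. The Homo libraries ranged from 10.8 through a median of 16.8 to 27.4 FPKM. WT 3 was the lowest library and Homo 4 the highest, and 4 of the 5 WT libraries lay inside the Homo range. Means were 11.9 ± 4.28 and 17.8 ± 5.92 FPKM, and the log2 difference was 0.55 (standard error 0.27), or 0.35 without WT 3.

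The catalytic subunit genes had separate patterns. *Phkg1*, the muscle-type γ gene on chromosome 5 (129863421 to 129898549, minus strand), had values of 2.42, 4.96, 0.764, 4.27 and 0.746 FPKM in WT 1 to WT 5. Its Homo values started at 3.65, had a median of 4.22 and reached 16.8 FPKM in Homo 1. All 7 Homo libraries were above the WT median, while WT 2 and WT 4 lay inside the Homo range. The means were 2.63 ± 1.95 (WT) and 7.61 ± 5.18 FPKM (Homo), with a log2 difference of 1.23 (standard error 0.43). It was 0.70 in the 7 libraries and 1.64 in the 5. *Phkg1* shares its position with *Chchd2* on the same strand, at 118 to 458 FPKM in WT and 254 to 418 in Homo, and with *Sumf2* on the other strand, at 2.37 to 8.82 and 3.73 to 23.2, highest in Homo 1 like *Phkg1*. Strand use in the counting is not given in the sources used here, so fragments of these overlapping genes cannot be told apart and the *Phkg1* level is uncertain.

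*Phkg2*, the liver-type γ gene (chromosome 7, 127573340 to 127583307), was at 4.56, 16.5, 10.1, 11.1 and 13.2 FPKM in WT 1 to WT 5. Homo libraries lay between 9.21 and 17.2 FPKM with a median of 13.4. WT 1 was the one library far below the rest, and the other 4 WT libraries were within the Homo range. Means were 11.1 ± 4.41 and 12.8 ± 3.05 FPKM. The log2 difference of 0.25 (standard error 0.27) was -0.01 without WT 1. The gene overlaps *Ccdc189* on the other strand, which had a mean of 8.09 FPKM.

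Of the phosphorylases, *Pygb*, the brain form (chromosome 2, 150786735 to 150831758), had the highest level of the 9 genes and the smallest relative spread. WT 1 to WT 5 held 24.5, 32.1, 20.1, 25.8 and 25.7 FPKM, and Homo libraries ran from 25.8 through 26.8 to 38.3. The means were 25.6 ± 4.29 (WT) and 29.4 ± 4.59 FPKM (Homo), and the log2 difference was 0.19 (standard error 0.17). *Pygm*, the muscle form (chromosome 19, 6384399 to 6398459), was at 1.81, 10.2, 6.28, 7.21 and 3.38 FPKM in WT. Its Homo values went from 1.23 through a median of 5.10 to 9.98 FPKM, so the spread within each genotype covered most of the range. The log2 difference of *Pygm* was -0.17 (standard error 0.41) and took the opposite sign without WT 2 (0.05) or Homo 5 (0.04). Both groups' means, 5.77 ± 3.29 and 5.05 ± 2.96 FPKM, were well inside the other group's spread.

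*Gys1* encodes the synthase that adds glucose units to the chain (chromosome 7, 45434844 to 45456619). Its values were 3.29, 3.45, 2.2045, 1.95 and 1.86 FPKM in WT 1 to WT 5. Homo libraries lay between 1.61 and 10.2 FPKM with a median of 2.35, and Homo 4 (10.2) and Homo 2 (5.61) alone exceeded the WT range. Means were 2.55 ± 0.760 and 3.76 ± 3.13 FPKM, and the log2 difference of 0.25 (standard error 0.35) was 0.01 without Homo 4. *Gys1* overlaps *Ruvbl2* on the other strand, at a mean of 12.4 FPKM.

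*Gbe1* encodes the enzyme that makes the branch points (chromosome 16, 70313949 to 70569716). Its WT values were 1.70, 5.33, 4.48, 5.29 and 4.42 FPKM, of which WT 1 was far below the others. In Homo it ran from 3.12 through 5.17 to 7.84 FPKM. Means were 4.25 ± 1.49 and 5.35 ± 1.83 FPKM with a log2 difference of 0.28 (standard error 0.28), or 0.06 without WT 1.

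**Figure D2:**
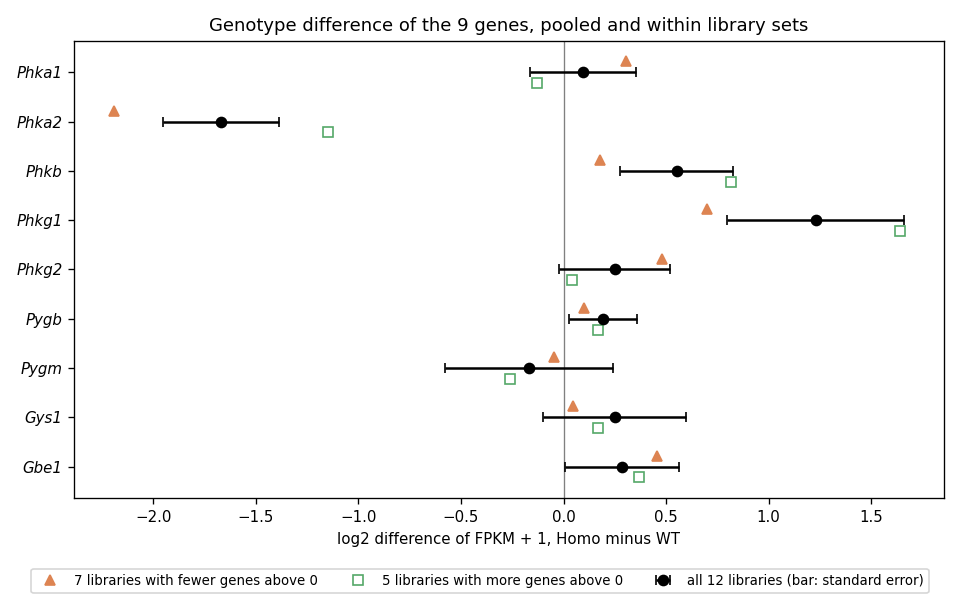
Log2 difference in FPKM + 1 between Homo and WT for the 9 genes over all 12 libraries (black, with standard error), in the 7 libraries with fewer genes above 0 (triangles) and in the 5 with more (squares). *Phka2* lies at -1.67, -2.19 and -1.15, and the other 8 genes between -0.17 and 1.23 over all libraries.

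Counted together, 7 of the 9 genes had a higher mean log2 value in Homo and 2 a lower one, *Phka2* and *Pygm*, with a median difference of 0.25. Over all genes tested 6912 were higher and 7105 lower, with a median of -0.0062. In limma fits over all genes, 0 of the 9 had an adjusted p under 0.05, against 1 gene of 14017 (0.00713%), *Jarid2*, named here after its values were seen. At an unadjusted p under 0.05, 1 of the 9 was lower (*Phka2*, where 2.5% of all genes were) and 1 was higher (*Phkg1*, where 3.05% were). Because the 9 genes were chosen on this contrast, nothing is read from these counts.

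Since FPKM is per length, levels were also compared between genes within each library. By mean over all 12 libraries the order was *Pygb* (27.8 ± 4.68 FPKM, SD), *Phkb* (15.3 ± 5.91), *Phka2* (13.7 ± 9.94), *Phkg2* (12.1 ± 3.58), *Phkg1* (5.54 ± 4.75), *Pygm* (5.35 ± 2.98), *Gbe1* (4.89 ± 1.72), *Phka1* (4.58 ± 1.81) and *Gys1* (3.26 ± 2.44). Of the genes tested, 82.3% had a lower mean than *Pygb* and 25.8% a lower mean than *Gys1*. Of the 8 neighbouring pairs in this order, the *Pygb* and *Phkb* pair kept its order in 12 of 12 libraries. *Phkg2* exceeded *Phkg1* and *Phka1* exceeded *Gys1* in 10 of 12 each. The place of *Phka2* depended on genotype, as a description. It was 2nd of 9 by mean in WT, above *Phkb* and *Phkg2* in 5 of 5 libraries, and 5th in Homo, below both in 7 of 7, so its pooled rank holds in neither group. *Phkg1* was 8th in WT and 4th in Homo. The other 3 neighbouring pairs, from *Phkg1* to *Phka1*, kept the pooled order in 6 or 7 of 12 libraries and were not separated beyond their spread.

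The brain phosphorylase predominated over its relatives. *Pygb* exceeded *Pygm* in 12 of 12 libraries, by 2.33 ± 0.80 on the log2(FPKM + 1) scale (SD, n = 12; exact two-sided sign-flip permutation test, p = 0.000488, adjusted p = 0.000814 over 5 pairs). It exceeded *Pygl* in 12 of 12 by 2.60 ± 0.75 (exact permutation p = 0.000488, adjusted p = 0.000814), and this p is the smallest that 12 libraries allow. *Pygb* made up a median of 68.6% of the summed FPKM of the phosphorylase genes in WT (65.0% to 74.4%) and 77.3% in Homo (71.2% to 92.4%). *Gys2*, the liver synthase, was listed at 0 in all 12 libraries, whereas *Gys1* was above 0 in all 12.

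Among the catalytic subunits the liver type had the higher listed level, with the limit that both genes overlap others, *Phkg1* with *Chchd2* and *Sumf2* and *Phkg2* with *Ccdc189*, from which their fragments cannot be told apart. *Phkg2* exceeded *Phkg1* in 10 of 12 libraries, with a mean log2 difference between *Phkg1* and *Phkg2* of -1.26 ± 1.02 (SD, n = 12; exact permutation p = 0.00195, adjusted p = 0.00244). The exceptions were both Homo, Homo 1 and Homo 7. The α subunits are given as a description, since the *Phka2* values were used to choose it. *Phka2* exceeded *Phka1* in 5 of 5 WT and 5 of 7 Homo libraries, and its median share of the α subunit FPKM was 82.9% in WT (76.5% to 90.4%) and 62.7% in Homo (36.5% to 75.7%). Summed over both α genes, the level was 27.7 ± 7.77 FPKM in WT (16.9 to 38.0) and 11.5 ± 2.73 in Homo (6.65 to 15.0). This sum holds the *Phka2* values used to choose it, so its lack of overlap is no further result. *Phka1* alone overlapped between genotypes. Summed γ subunits were at 13.7 ± 5.41 and 20.4 ± 5.70 FPKM, and these groups overlapped.

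**Figure D3:**
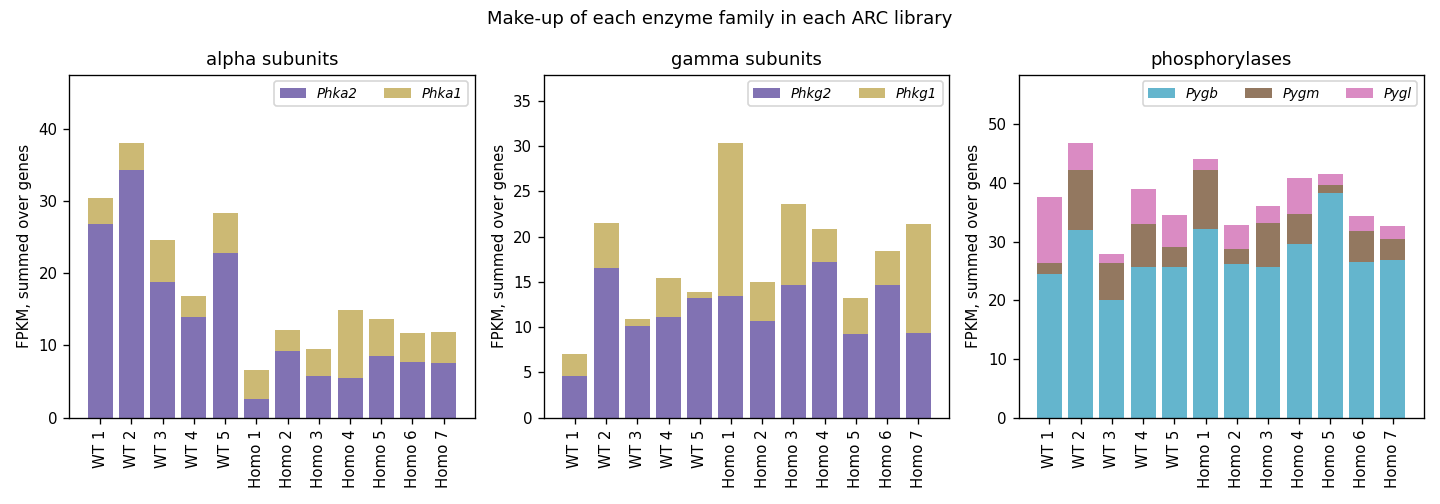
Stacked FPKM of the α subunit genes, the γ subunit genes and the phosphorylase genes in each of the 12 libraries. *Phka2* (purple, left) is the larger α share in all 5 WT libraries and in 5 of 7 Homo libraries, and *Pygb* (light blue, right) is the largest phosphorylase share in all 12.

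The library sets were compared for the same genes, a contrast on which none had been chosen. With genotype in the limma model, 0 of the 9 differed between the sets at an adjusted p under 0.05, and 0 at an unadjusted p under 0.05. Over all genes, 20 (0.143%) were lower in the set with more genes above 0 and 5 (0.0357%) higher, these being *Cdc7*, *Mir1188*, *Gm16349*, *AC098743.1* and *Metazoa_SRP*, named after their values were seen. The difference between the sets was -0.14 for *Phka2* (standard error 0.30, limma adjusted p = 0.923). The 9 differences lay between -0.48 for *Gys1* (adjusted p = 0.749) and 0.42 for *Gbe1* (adjusted p = 0.703).

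Subunits of 1 complex can be asked whether they vary together from mouse to mouse. With genotype means removed, 28 relations were computed over the 12 libraries, 10 between the subunit genes and 18 between the 9 genes and the mean of the astrocyte or the neuron markers. None had a permutation p under 0.05, unadjusted or adjusted. The largest was that of *Pygb* with the neuron markers (Pearson r = 0.56, permutation p = 0.0747, adjusted p = 0.973; Spearman rho = 0.55, permutation p = 0.0783). Without the 2 libraries farthest from the median of the markers, r was 0.24, and within the 7 libraries with fewer genes above 0 it was 0.73. Between subunit genes the strongest was *Phka1* with *Phkg1* (r = -0.53, permutation p = 0.0904). *Phka2* and *Phkb* had r = 0.15 (permutation p = 0.659), and *Phka2* and *Phka1* had r = -0.09 (permutation p = 0.769).

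The genes whose values followed *Phka2* most closely within genotypes, over the same 12 libraries, were *Zfp26* (Pearson r = 0.94), *Gls2* (0.93), *Kat2a* (0.92), *Ebpl* (0.91) and *B230312A22Rik* (0.87). They were the top 5 of 14017 genes by this measure, so high values are a product of the ranking.

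Of 33 further gene symbols of glycogen metabolism and its control, 32 were in the table and 27 passed the filter. The symbol *Gyg1* was not analysed here, and glycogenin was read under *Gyg*. *Gys2* and the phosphatase-targeting genes *Ppp1r3a*, *Ppp1r3b*, *Ppp1r3d* and *Ppp1r3g* were below it. In the limma comparison of Homo with WT, 0 of the 27 had an adjusted p under 0.05, while 4, each with the higher mean in Homo, were under 0.05 before adjustment (4 of 27, where 3.05% of all genes were higher and 2.5% lower at that threshold). With the library set as a covariate, 3 were under 0.05 before adjustment, *Ppp1r1a* as the 1 that was higher and *Gaa* and *Pygl* as the 2 that were lower, so *Ppp1r1a* alone was in both. Over the 27 genes, 13 were higher and 14 lower, with a median of -0.0061, which is close to that of all genes. The split turned with the library set, from 7 higher and 20 lower in the 7 libraries (median -0.19, all genes -0.08) to 20 higher and 7 lower in the 5 (median 0.19, all genes 0.13).

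Of these 4, *Ppp1r1a* and *Ppp1ca* belong to protein phosphatase 1, the enzyme that reverses phosphorylase kinase. *Ppp1r1a*, an inhibitor of that phosphatase when phosphorylated by protein kinase A, was at 14.2 ± 2.12 FPKM in WT and 21.0 ± 3.92 in Homo (log2 difference 0.52, standard error 0.18, limma adjusted p = 0.799). All 7 Homo libraries were above its WT median. *Ppp1ca*, a catalytic subunit of the phosphatase, was at 38.5 ± 10.1 and 51.9 ± 7.85 FPKM (log2 difference 0.44, limma adjusted p = 0.899). Its relative *Ppp1cb* was at 39.0 ± 6.93 and 38.7 ± 7.38 FPKM. *Ppp1r2*, another inhibitor, was at 24.8 ± 2.80 and 25.6 ± 2.94 FPKM.

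Elsewhere in the pathway, *Pgm2*, a phosphoglucomutase, was at 18.8 ± 6.92 FPKM in WT and 26.1 ± 3.62 in Homo (log2 difference 0.52, limma adjusted p = 0.899). Another phosphoglucomutase gene, *Pgm1*, went the other way near the filter, at 2.02 ± 1.78 and 0.706 ± 0.392 FPKM (log2 difference -0.68, limma adjusted p = 0.905). With 1 library left out, the *Pgm1* difference lay between -0.90 and -0.39. *Epm2a*, which encodes the glycogen phosphatase laforin, was at 3.73 ± 0.804 and 5.88 ± 2.03 FPKM (log2 difference 0.50, limma adjusted p = 0.899). With each of the 12 libraries left out in turn, the unadjusted p was no longer under 0.05 in 9 cases for *Epm2a*, 6 for *Pgm2*, 5 for *Ppp1ca* and 0 for *Ppp1r1a*. The loss was greatest without WT 1, WT 3 and WT 2 for the first 3 of these genes. None of these 4 differences passed the correction over all genes.

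The remaining roles are represented by genes of high level. *Calm2*, which encodes calmodulin, the δ subunit, was far above the α, β and γ subunits, at 678 ± 162 FPKM in WT and 721 ± 234 in Homo. *Gaa*, the lysosomal glucosidase, was at 437 ± 115 and 331 ± 24.9 FPKM (log2 difference -0.36, limma adjusted p = 0.899), with all 7 Homo libraries below the WT median. *Gyg*, which encodes the primer glycogenin, was at 19.3 ± 4.70 and 20.1 ± 6.61 FPKM. *Pygl* was at 5.79 ± 3.56 FPKM in WT and 3.10 ± 1.52 in Homo (log2 difference -0.63, limma adjusted p = 0.906).

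For upstream kinases, targeting subunits and the laforin partners, the genotype means differed by less than 1 SD. *Prkaca* was at 103 ± 32.5 FPKM in WT and 101 ± 26.1 in Homo, and *Prkacb* at 104 ± 22.6 and 111 ± 19.9. These encode catalytic subunits of protein kinase A. *Ppp1r3c*, which brings the phosphatase to glycogen, was at 10.2 ± 3.27 and 9.52 ± 2.92 FPKM, and *Ppp1r3f* at 7.16 ± 1.47 and 7.13 ± 3.24. *Nhlrc1*, the malin gene, was at 8.42 ± 3.49 and 7.06 ± 3.85 FPKM, and *Epm2aip1*, whose product binds laforin, at 16.9 ± 2.56 and 17.2 ± 3.86.

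**Figure D4:**
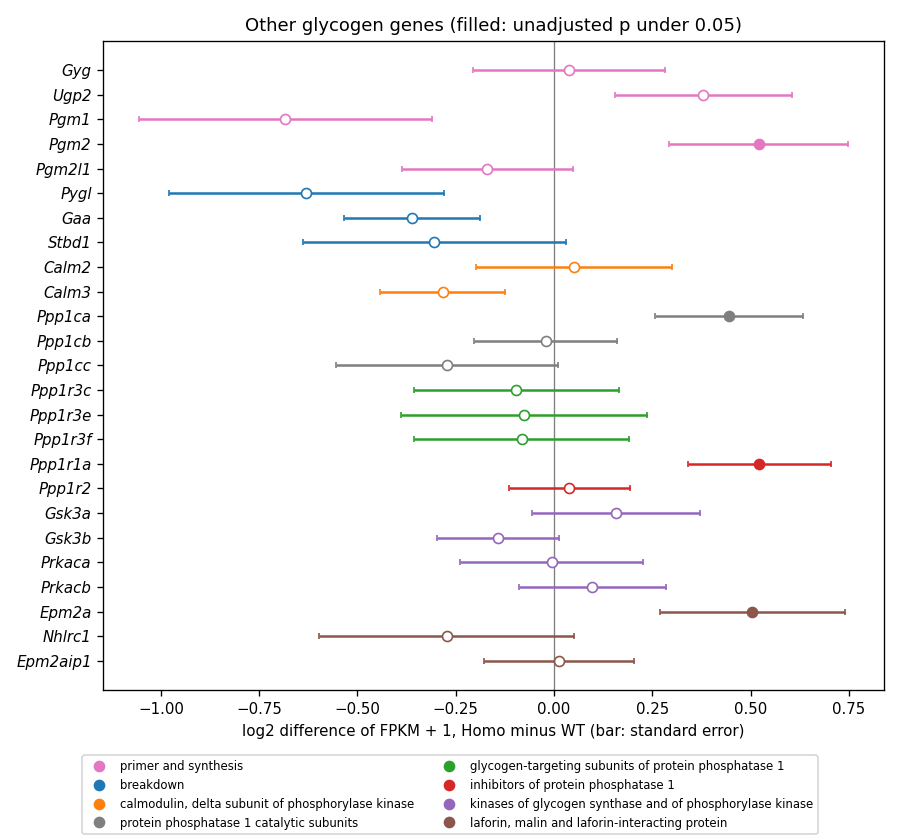
Log2 difference in FPKM + 1 between Homo and WT, with standard error, of 25 of the 27 other glycogen genes that passed the filter, coloured by role. Filled points mark the 4 genes with an unadjusted p under 0.05 (*Pgm2*, *Ppp1ca*, *Ppp1r1a* and *Epm2a*), and none of the 27 had an adjusted p under 0.05.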

How the data were processed

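RNA of laser-captured ARC was extracted, amplified with a NuGEN whole-transcriptome kit, sheared, made into bar-coded libraries and sequenced on an Illumina HiSeq instrument by the authors, who deposited 1 table of FPKM values. The submitters' processing notes name TopHat2 2.0.8, Cufflinks 2.2.1 and GRCm38 without a role for each. The annotation, the strand setting and any scaling beyond FPKM are not given in the sources used here. All 12 columns were matched to mice by name and 0 were left over, with an extra letter in the names of Homo 4 and Homo 5.

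Values were taken as log2(FPKM + 1) for the 14017 genes with a mean of at least 1 FPKM and fitted with limma 3.58.1 in R 4.3.3 (trend, robust variances, Benjamini-Hochberg adjustment over all genes, threshold 0.05). The fit was tested on simulated data, drawn as independent normal values for each gene without library sets. That test therefore does not cover the split of the libraries. How the amplification affected single values was not measured here, and FPKM without counts gives no counting interval. Genes that share reads with overlapping genes cannot be separated. Isoform pairs were compared by exact sign-flip permutation, and correlations by 100000 rearrangements within genotype. With 1 library per mouse, p-values measure the spread between mice together with that of the assay.

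Besides the 9 genes, the text names other glycogen genes with an unadjusted p under 0.05, the 2 highest of each role (some genes that this rule takes are not reported here), and the 5 genes most like *Phka2*. *Pygl* and *Gys2* are named as members of the isoform pairs. *Pgm1* is named beside *Pgm2* as another phosphoglucomutase gene, after its values were seen. The 9 genes, the lists and the tests were chosen with earlier results of these data known. Cell type markers were 12 lists, of which astrocyte, neuron, endothelial, ependymal, choroid plexus and oligodendrocyte genes differed between genotype means of log2(FPKM + 1) by 0.14, 0.08, -0.09, -0.12, 0.09 and 0.34, and the liver list by 0.05. *Map2* and *Mia* were not analysed here. Positions are from GENCODE release 21, where 97.5% of the tested identifiers were found. Alternatives covered the pseudocount, filters, scaling, array weights, library sets, a replicate block and each library left out.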

Additional observations from a re-analysis of the deposited data

Results flagged for a closer look

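Among the 18 groups of values examined (9 genes in WT and in Homo), 2 held a library farther from the rest than Dixon's 95% critical value allows, and chance gives about 1 such group in 20. *Phka1* was at 9.50 FPKM in Homo 4, and the next Homo library was at 5.09. The gap was 0.671 of the range of the Homo group. *Gbe1* was at 1.70 FPKM in WT 1, and the next WT library was at 4.42, a gap of 0.749 of the WT range.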

How the results depend on the processing

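The *Phka2* difference between Homo and WT was negative in all alternatives run, at -2.19 within the 7 libraries, -1.15 within the 5, and -1.83 to -1.50 with 1 library left out. Every Homo library was below every WT library, so its sign could not turn in any subset of libraries. For these subsets the sign is therefore not a check, and only the size is described. The count of the 9 genes that were lower in Homo was 2, with 1 to 3 when 1 library was left out. It was 1 without WT 2 or without Homo 5, where *Pygm* turned. Over all genes, 1 was called (*Jarid2*), with 6 within the 7 libraries, 19 within the 5 and 1 to 3 with 1 library left out. *Fhdc1* and *U6* were added without WT 2, and *Gm17114* without Homo 4. Of the other glycogen genes 4 had an unadjusted p under 0.05, against 2 within the 7 libraries, 0 within the 5 and 2 to 4 with 1 library left out, the count being 2 without WT 3, WT 5, Homo 1, Homo 3 or Homo 5. It was 6 after quantile normalization or with array weights, and 3 with the library set as a covariate, of which 2 were lower in Homo. The cause of these moves was not tested, beyond the smaller number of libraries in each set. The isoform pairs past the test numbered 5, but the α pair is a description and *Gys2* was at 0 throughout, which fixes that pair. The count was 4 within the 7 libraries, where the α pair was not past it (exact permutation, adjusted p = 0.141), and 0 within the 5, where the exact test cannot go below 0.0625. Rescaling without the 10 highest genes moved the median difference of all genes to -0.12 and gave 3 of the 9 genes lower, *Phka1* among them at -0.02. The low-value filter kept all 9 genes at a mean of at least 1 FPKM.

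With a replicate block, 2 genes were called over all genes (*Jarid2* and *Rps13-ps1*) and 2 other glycogen genes had an unadjusted p under 0.05. Same-numbered WT and Homo libraries had correlations of -0.05 to 0.03 across genes after group means were removed, and 0 of 5 correlated best with their own number. This cannot exclude that the numbers paired the mice, because WT 3 to 5 and Homo 3 to 5 lie in different library sets. Depth is unknown without counts, which limits statements on genes near 1 FPKM such as *Phkg1* in WT 3 and WT 5.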

Other observations

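Of the genes that neighbour *Phka2* on chromosome X within 500000 bases and passed the filter, 2 are given here, looked at after its values were seen. *Adgrg2*, 4096 bases away, was at 0.241 to 1.14 FPKM in WT and 0.377 to 18.6 in Homo (log2 difference 0.72, standard error 0.56, limma adjusted p = 0.915). *Pdha1*, the X-linked pyruvate dehydrogenase subunit gene, was at 16.4 ± 3.95 and 19.9 ± 5.48 FPKM (log2 difference 0.25, limma adjusted p = 0.919). Both had a higher mean in Homo, where *Phka2* was lower, and neither passed the test.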
